A study of Mus musculus with 2 samples.

Results

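Imprinted genes, of which only the copy inherited from one parent is usually active, were examined in the mouse adrenal gland by long-read RNA sequencing, in which 1 read is meant to span 1 RNA molecule. The members were the 3 noncoding genes Meg3, Rian and Mirg with their protein-coding neighbour Dlk1 on chromosome 12, and 5 imprinted genes elsewhere, namely Peg3, Nnat, Mest, Grb10 and Plagl1. They were chosen by gene name. Of these 9 genes, 8 were among the 18179 annotated genes with at least 1 read. For each gene, reads were summed over all its transcript models and split into annotated models, unannotated spliced models and models with a single exon.

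The Dlk1-Dio3 domain carries genes of both kinds: Dlk1 is expressed from the paternal copy and Meg3, Rian and Mirg from the maternal copy. Dlk1 encodes a transmembrane protein of the Notch ligand family that is cut to a soluble form, and in the adrenal gland it marks cells of the capsule and outer cortex as well as chromaffin cells. Meg3 is a long noncoding RNA, Rian a host of small nucleolar RNAs and Mirg a host of microRNAs, while many of the other imprinted genes are growth regulators that are high around birth and fall with age.

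Both libraries were of adrenal glands from 10-day-old female B6CASTF1/J mice, an F1 cross between the C57BL/6J and CAST/EiJ strains. There was 1 group with 2 libraries and no treatment, so the study holds no contrast between conditions. The labels number the libraries as biological replicates 1 and 2, but give both the same donor entry and the same animal in one field and different animals in another, so the spread between them may be technical. The deposited tables carry no allele of origin, so imprinting itself was not measured, and "imprinted" is used here only as the genes' known property.

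Replicate 1 held 593165 reads outside the spike-in controls and replicate 2 held 772154, so that a count of 0 allowed a level of up to 5.06 and 3.89 reads per 1000000 (CPM), as 3 reads of the total; such limits and the intervals below cover counting error only. Markers of cortex summed to 16881 CPM in replicate 1 and 20771 CPM in replicate 2 over 7 genes, none at 0, and chromaffin markers to 4933 and 5483 CPM over 8 genes, none at 0. Markers of other tissues had unequal levels in the 2 libraries. Liver markers (5 of 5 genes past the test below) summed to 7001 CPM in replicate 1 against 1058 CPM in replicate 2, skeletal muscle markers (5 of 7, 4 of them higher in replicate 1) to 10479 against 3606 CPM, and fat markers (0 of 6) to 10205 against 14883 CPM. Kidney markers were at 0 reads for all 5 genes in replicate 1 and summed to 627 CPM in replicate 2, where all 5 passed. In whole tissue, more cells of a type and more RNA per cell cannot be told apart.

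Dlk1 was the most abundant of the 9 genes. It had 174 reads in replicate 1 (293 CPM, exact 95% Poisson interval 251 to 340) and 228 in replicate 2 (295 CPM, 258 to 336), a mean of 294 ± 1.37 CPM (SD, n = 2). The intervals of Dlk1 lay above those of every other member in both libraries. Nnat, a small membrane proteolipid of neuroendocrine tissue, followed with 93 reads (157 CPM, 127 to 192) and 112 reads (145 CPM, 119 to 175). Mest, an enzyme-like protein of embryonic mesoderm, had 97 reads (164 CPM, 133 to 199) and 84 reads (109 CPM, 86.8 to 135). Meg3 had 98 reads (165 CPM, 134 to 201) and 68 reads (88.1 CPM, 68.4 to 112).

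Nnat, Mest and Meg3 could not be ordered in replicate 1, where their intervals overlapped. In replicate 2 the Nnat interval lay above that of Meg3, and the Mest interval overlapped both. The remaining genes were far lower. Peg3, a zinc finger protein, had 17 reads (28.7 CPM) and 8 reads (10.4 CPM), and Grb10, an adaptor that restrains insulin receptor signalling, had 13 reads (21.9 CPM) and 6 reads (7.77 CPM). Rian had 7 reads (11.8 CPM) and 3 reads (3.89 CPM), with intervals that overlapped those of Peg3 and Grb10 in each library. Mirg had 1 read in replicate 1 and 0 in replicate 2. Plagl1, a zinc finger regulator of other imprinted genes, had no row in either table, so it lay under the limits set by 0 reads.

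**Figure D1:**
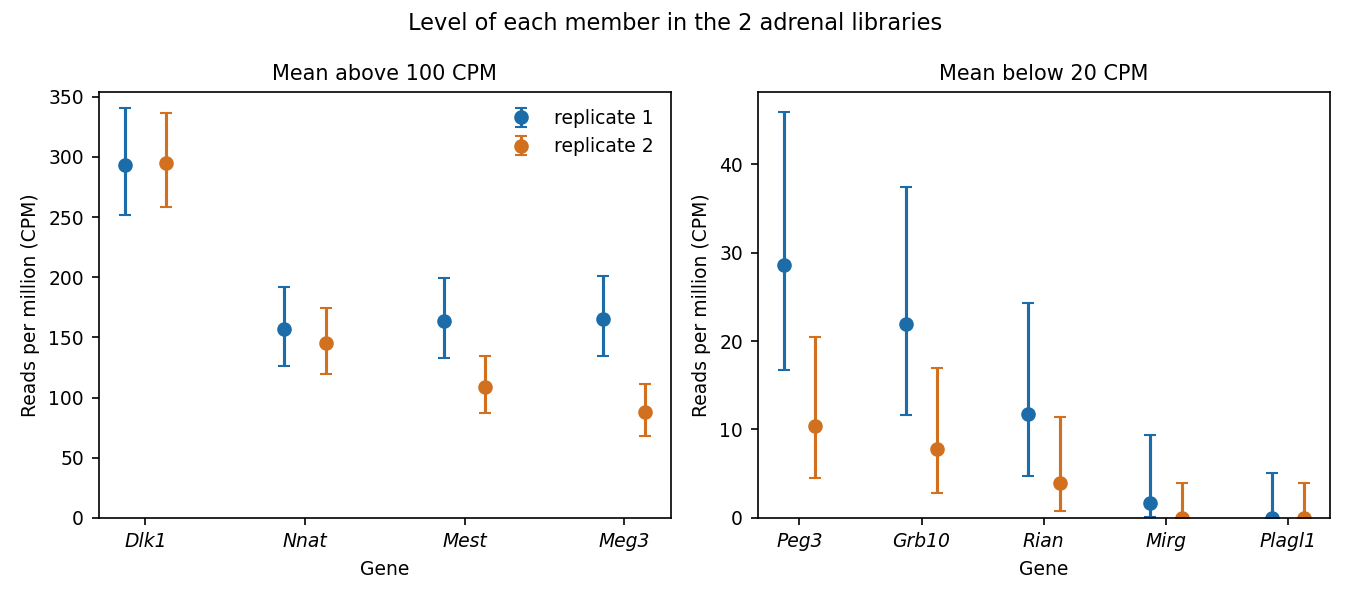
Level of each of the 9 genes in CPM in replicate 1 (blue) and replicate 2 (orange), with exact 95% Poisson intervals that cover counting error only (for 0 reads, up to the limit of 3 reads); the panels have different linear scales. Dlk1 stands at 293 and 295 CPM in the 2 libraries, Meg3 at 165 and 88.1 CPM, and Mirg and Plagl1 at or near 0.

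Whether the members differed between the 2 libraries was tested on reads, by a two-sided exact binomial test with Benjamini-Hochberg adjustment over the 10567 genes with at least 10 reads in all. A gene was called at an adjusted p under 0.05 and a ratio of at least 2. The test compares the reads of 2 libraries and not conditions. None of the 7 members with enough reads was called, against 3.46% of all genes tested. At an unadjusted p under 0.05, 4 of the 7 passed (Meg3, Mest, Peg3 and, at the threshold, Grb10), against 16% of all genes tested. The exact test of edgeR called none of the 7, against 1.25% of all genes. The spread assumed in that test (its dispersion) was estimated from the same 2 libraries, taken as 1 group. The edgeR test is therefore not independent of the differences it tests.

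Meg3 came nearest. Its level was 1.88-fold higher in replicate 1 (95% interval 1.36 to 2.60), with an adjusted p of 0.0021 by the exact binomial test, so it missed the call through the minimum ratio alone; with no minimum ratio it was the only member called, against 6.79% of all genes. In edgeR's exact test, whose dispersion came from these same 2 libraries, the adjusted p was 1, which is not an independent check. When only models with 2 or more exons were counted, the log2 ratio of Meg3 went from 0.90 to 1.16 and the gene was called, against 3.16% of the 9253 genes tested that way. On annotated models only, its log2 ratio was 0.38 and it was not called, but this setting held just 6 reads in each library, too few to weigh against the others. The liver and skeletal muscle markers given above were, in sum, also higher in replicate 1. So were capsule and fibroblast markers (1659 against 1261 CPM, 0 of 6 tested genes called) and endothelial markers (394 against 313 CPM, 0 of 4). The sums of cortex, chromaffin, fat, kidney, and Schwann and glia markers were lower in replicate 1. The part of any of these cells or tissues in the Meg3 difference was not tested. The log2 ratio of Mest was 0.59, higher in replicate 1, with an adjusted p of 0.09 by the exact binomial test. Dlk1 and Nnat had ratios of 0.993 and 1.08, with intervals of 0.811 to 1.22 for Dlk1 and 0.812 to 1.44 for Nnat, so a difference of 2-fold lay outside both.

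The low members all had more CPM in replicate 1. Peg3 was 2.77-fold higher, Grb10 2.82-fold and Rian 3.04-fold, from 25, 19 and 10 reads in all, with adjusted p of 0.19, 0.31 and 0.59 by the exact binomial test. Thus 6 of the 7 tested members were higher in replicate 1 in CPM, with a median log2 ratio of 0.90, where 5545 of all 10567 genes tested were higher there and the median was 0.04.

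**Figure D2:**
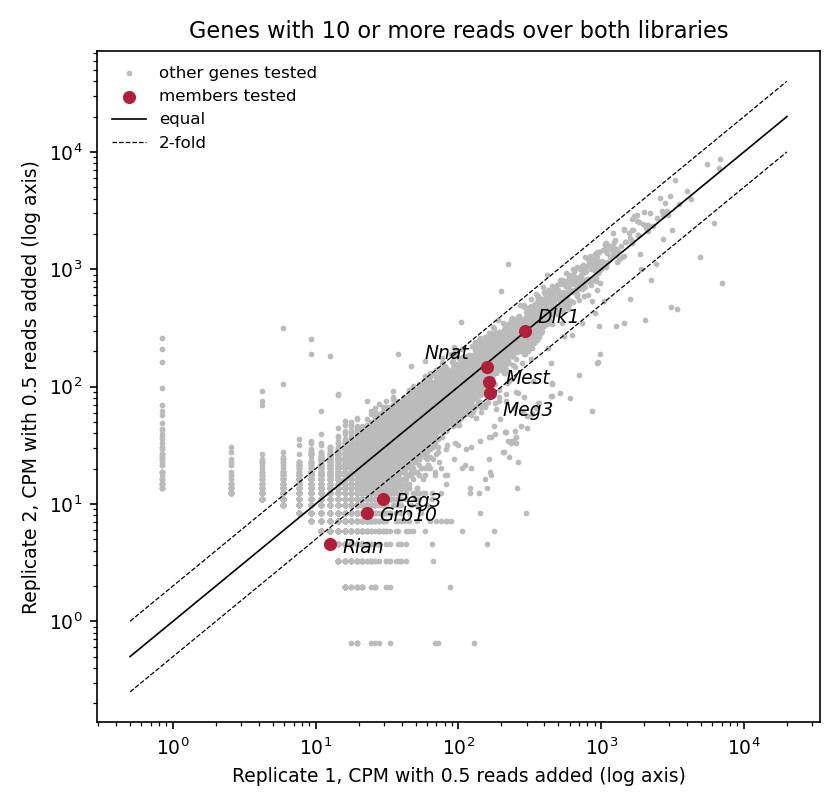
Level of every gene with 10 or more reads over both libraries (grey points) and of the 7 tested members (red), in CPM with 0.5 reads added, replicate 1 on the x axis and replicate 2 on the y axis, both logarithmic. Dlk1 and Nnat lie near the line of equal levels, Meg3 just inside the dashed 2-fold line, and Peg3, Grb10 and Rian below it with few reads.

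The members fell into very different classes of model. Reads of Dlk1 and Mest were mostly on annotated transcripts (85.6% and 89.9% of Dlk1 reads in replicates 1 and 2, and 77.3% and 70.2% of Mest reads). Reads of Meg3 were not: 6 of 98 and 6 of 68 reads matched an annotated transcript (6.12% and 8.82%), against medians of 81.5% and 85.3% over the 2162 genes that had 50 or more reads in both libraries. Only 2.04% and 2.27% of those genes had a lower annotated share than Meg3. Nnat stood between, with 44.1% and 41.1%. Of the 39 and 20 Meg3 reads on unannotated spliced models, 26 and 17 were on incomplete splice matches, which follow part of an annotated transcript. Spliced Meg3 reads joined exons across annotated introns 226 and 78 times, and across unannotated introns 19 and 2 times.

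Single-exon models held 54.1% and 61.8% of Meg3 reads and 52.7% and 58.0% of Nnat reads, against medians of 4.84% and 3.05%. In both libraries at least 94.1% of the 2162 genes had a lower single-exon share than Meg3 or Nnat had. Dlk1 had 8.62% and 4.39%. The reads of Peg3 (17 of 17 and 7 of 8), Grb10 (9 of 13 and 4 of 6) and Rian (6 of 7 and 3 of 3) were mostly single-exon too. The share of single-exon reads over the whole library was 20.4% in replicate 1 and 16.2% in replicate 2.

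By Fisher's exact test, adjusted over the 2162 genes, none of the 4 members with enough reads (Dlk1, Meg3, Nnat and Mest) was called for its single-exon share (0.278% of all genes tested), its annotated share (1.11%) or the share of its main transcript (1.8%). The main transcript of Meg3 and of Nnat was the pool of their single-exon models. That of Mest was its only annotated model with reads. For these genes the main transcript share repeats an earlier share, and only Dlk1 adds a separate comparison. The widest gap was the single-exon share of Mest, at 4 of 97 reads (4.12%, exact 95% interval 1.13 to 10.2) against 12 of 84 (14.3%), with p = 0.019 and adjusted p = 0.38 by Fisher's exact test.

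**Figure D3:**
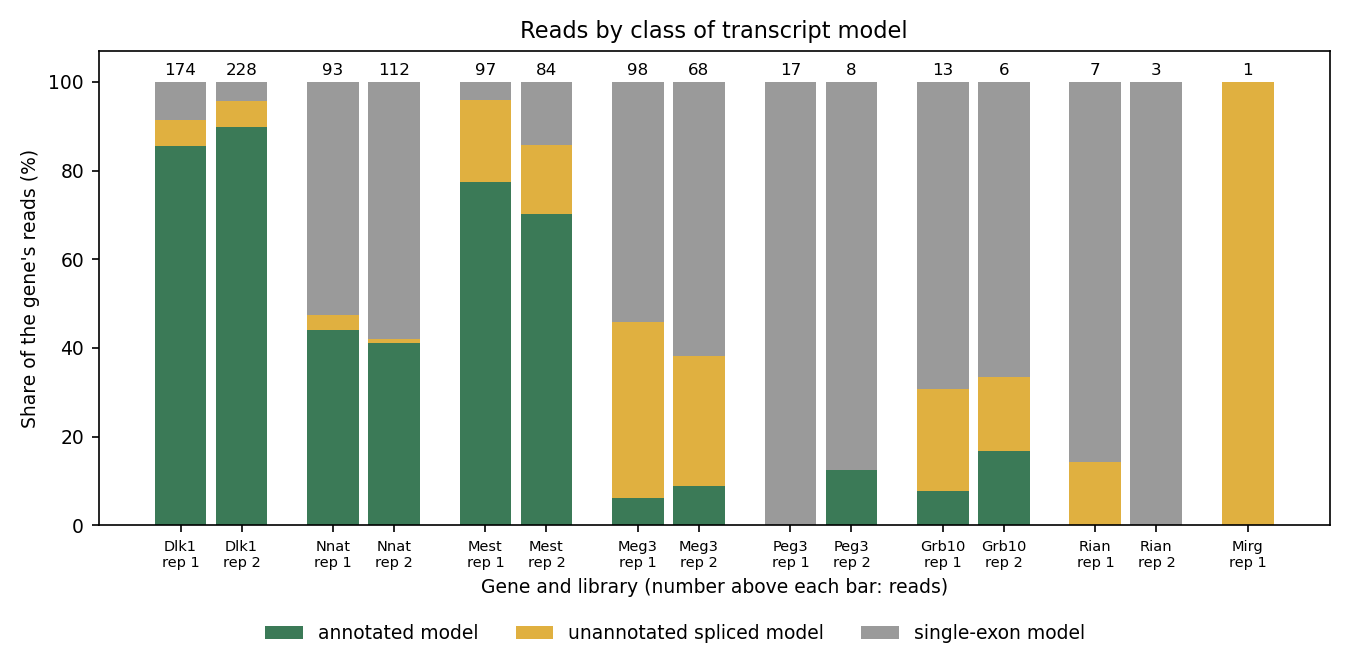
Share of each gene's reads on annotated models (green), unannotated spliced models (yellow) and single-exon models (grey), by gene and library, with the number of reads above each bar. Dlk1 and Mest are mostly green, Meg3 yellow and grey, and Peg3, Grb10 and Rian, with 17 or fewer reads a library, mostly grey.

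Dlk1 (ENSMUSG00000040856.17) spans 10.5 kb of the plus strand, at positions 109452823 to 109463336 of chromosome 12 in mm10. Its main transcript in both libraries was Dlk1-205, a 5-exon form with 117 reads (67.2% of the gene) in replicate 1 and 140 reads (61.4%) in replicate 2. Next came Dlk1-208, with 21 reads (12.1%) and 38 reads (16.7%). A single-exon model of 857 bases in the last exon held 11 reads (6.32%) in replicate 1. Of the reads on spliced models, 148 and 202 began in the first exon that ends at position 109453726, and 1 and 6 used the annotated exon upstream of it. The 3 following constitutive exons, of 64, 131 and 142 bases, were kept in every read that crossed them.

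The choice that divided Dlk1 reads lay in the last exon. Dlk1-205 keeps this exon whole, while other forms remove a stretch of its coding part. The forms also differ at the 3′ end: Dlk1-205 is annotated to end at position 109460700, and Dlk1-208 at 109463336, the end of the gene. The stretch is shown because its removal divides the coding parts of these forms; it runs from chr12:109459833-109460117 on the plus strand of mm10, is taken from the GENCODE transcript, and has in capitals the 225 bases removed most often:
Dlk1 last exon: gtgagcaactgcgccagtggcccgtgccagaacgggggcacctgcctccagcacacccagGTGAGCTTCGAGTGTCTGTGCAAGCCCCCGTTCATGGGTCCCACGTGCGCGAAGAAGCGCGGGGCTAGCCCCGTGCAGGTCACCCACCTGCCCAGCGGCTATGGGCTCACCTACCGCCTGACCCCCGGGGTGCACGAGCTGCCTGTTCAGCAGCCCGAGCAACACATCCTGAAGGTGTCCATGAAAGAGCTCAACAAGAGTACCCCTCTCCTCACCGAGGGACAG

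Of the spliced reads that covered this stretch, 35 of 157 in replicate 1 (22.3%, exact 95% interval 16.0 to 29.6) and 68 of 215 in replicate 2 (31.6%, 25.5 to 38.3) had removed part of it. The difference of 9.33 points, lower in replicate 1, was not past the threshold, with p = 0.06 by Fisher's exact test and 0.12 after adjustment over 2 splice shares compared. In an added setting, single-exon models over the stretch were counted as uncut. The shares were then 20.8% and 30.2%, with p = 0.038 by Fisher's exact test and 0.075 after adjustment. Removal took 5 annotated forms. The 225-base form had 22 reads in replicate 1 and 41 in replicate 2, or 62.9% and 60.3% of the reads with a removal. A 219-base form had 7 and 9 reads, a 153-base form 2 and 10, a 150-base form 3 and 5, and a 285-base form 1 and 3. Each length is a whole number of codons (75, 73, 51, 50 and 95), and each lies inside the coding part. Dlk1 proteins are known to come in forms with and without the juxtamembrane region in which the soluble part is cut off; no protein was measured here.

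**Figure D4:**
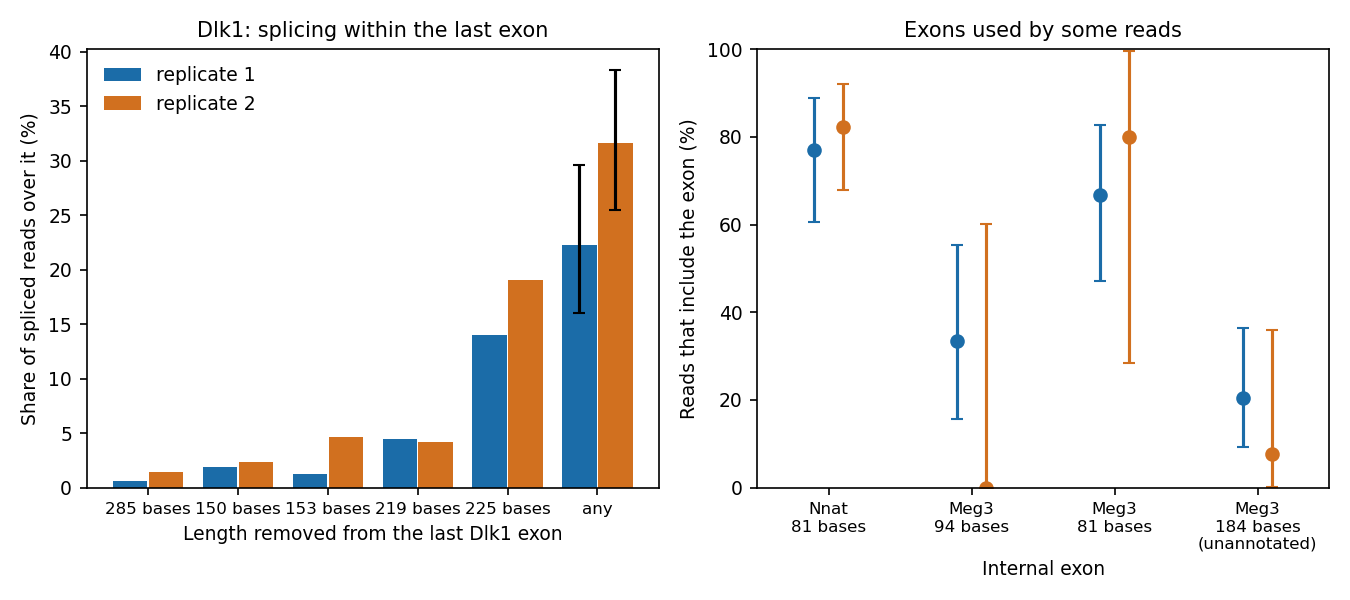
Left, share of spliced Dlk1 reads over the last exon that had each length removed, and any, in replicate 1 (blue) and replicate 2 (orange), with exact 95% intervals on the total: 22.3% and 31.6%. Right, share of reads that include each of 4 internal exons of Nnat and Meg3, with exact 95% intervals; the Nnat exon is kept in 76.9% and 82.2% of reads.

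Meg3 (ENSMUSG00000021268.17) spans 30.7 kb of the plus strand of chromosome 12 (109541001 to 109571726), and its reads were spread over 31 models in replicate 1 and 16 in replicate 2. The model with most reads was a single-exon one that ends within 10 bases of the gene's annotated end, with 36 of 98 reads in replicate 1 and 31 of 68 in replicate 2. In replicate 1 it covers 333 bases and in replicate 2 it covers 4191 bases. A model pools many reads, so its length is not that of each read. All single-exon Meg3 reads of both libraries lay on models inside 1 annotated exon, and 17 and 11 of them were not at the gene's end. The last 30 bases of the annotated transcript Meg3-207 are shown because most Meg3 reads were on models that end at or near its end. The polyadenylation hexamer AATAAA is in capitals (chr12:109571692-109571721, plus strand, mm10). AATAAA, searched on the transcript strand, stands in the last 30 bases of 23.3% of all 141722 annotated mouse transcripts:
Meg3 end: atggtgctttcAATAAAtttcttgttttaa

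Of the other Meg3 models with at least 5% of its reads in a library, those of replicate 1 were a 7-exon model (6 reads, 6.12%) and a 5-exon model (5 reads, 5.10%) that both reach the gene's end, and a single-exon model of 578 bases (5 reads). Those of replicate 2 were the annotated Meg3-205 (6 reads, 8.82%), a 3-exon model of 1542 bases (5 reads, 7.35%) and a single-exon model of 279 bases (6 reads), which all stop at the same early place, and a 3-exon model that reaches the gene's end (4 reads, 5.88%).

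Spliced Meg3 reads were mostly on models that end at 1 of 2 places. All reads of a model share its start and end, so the place where each read stopped was not seen. In replicate 1, 17 reads were on models that begin in the most upstream annotated exon. Of these, 11 were on models that reach the end of the gene and 5 on models with the end of the short 3-exon transcript Meg3-205. Of the 14 such reads of replicate 2, 2 were on models that reach the end of the gene and 11 on models with the short end. Further 28 and 11 spliced reads were on models that reach the end of the gene but begin in a later exon. Several of these exons open other annotated transcripts: 12 and 1 spliced reads began in the one that ends at position 109544742, 5 and 1 in the one ending at 109546542, 5 and 2 in the one ending at 109549371, and 0 and 1 in the one ending at 109549552. The short ends lie in an exon that in the longer forms is spliced at position 109544743.

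Exon choice in Meg3 was read from few reads. An annotated exon of 81 bases was kept in 20 of 30 reads of replicate 1 (66.7%, exact 95% interval 47.2 to 82.7) and 4 of 5 of replicate 2. An annotated 94-base exon was kept in 8 of 24 reads of replicate 1 (33.3%, 15.6 to 55.3) and in 0 of 4 of replicate 2. An exon of 184 bases that the annotation does not hold, at positions 109568411 to 109568594, was in 8 of 39 reads of replicate 1 (20.5%, 9.30 to 36.5) and 1 of 13 of replicate 2 (7.69%). The exons of 113, 74, 158 and 84 bases were kept in every read that crossed them.

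**Figure D5:**
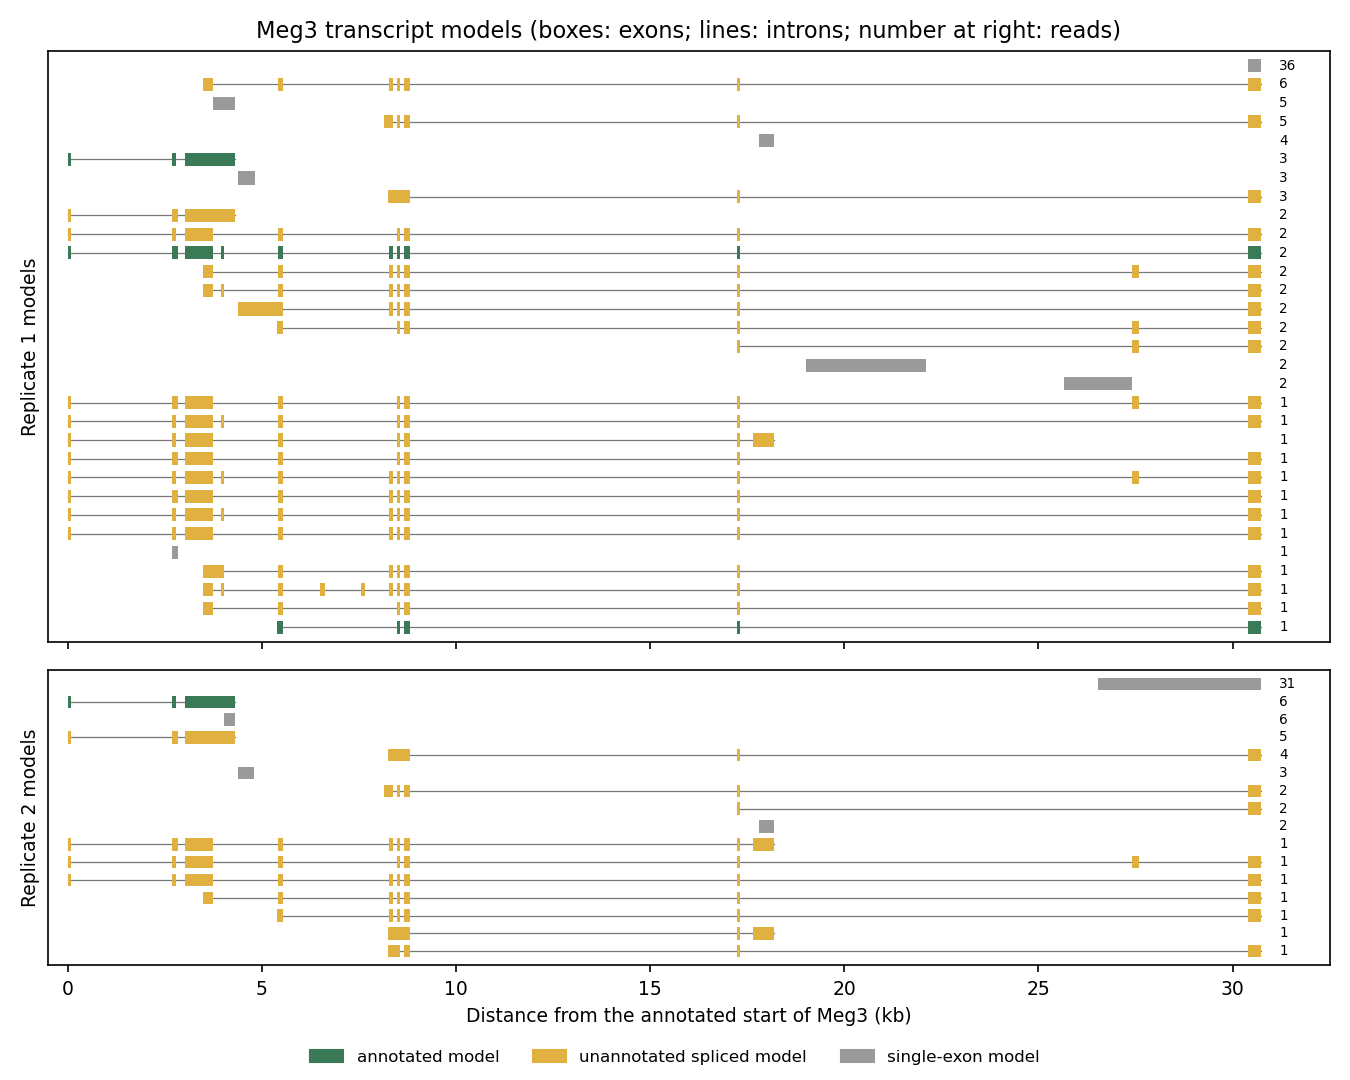
Transcript models of Meg3 in replicate 1 (top) and replicate 2 (bottom), as distance in kb from the annotated start; boxes are exons, lines introns, colours the class of model and the number at the right its reads. The model with most reads is a single-exon one at the far end of the gene (36 and 31 reads). First-exon models end there or within the first 5 kb, apart from a model of 1 read in each library that ends near 18 kb.

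The last intron before the final Meg3 exon, of 13070 bases, was spliced out whole in 31 and 12 reads, and the 8 and 1 reads with the unannotated exon kept 184 bases of it. Some single-exon reads were on models inside it as well, and the 31-read model of replicate 2 begins in it. These single-exon models lie inside exons of other annotated Meg3 transcripts, which do not remove this intron whole. The intron contains the hairpin of Mir770, and 39 and 13 reads in all joined exons across that hairpin, while no Meg3 read had an exon over it. A further 1 read in replicate 1 was assigned to Mir770 itself, and 2 and 4 reads to Mir1906-1, which overlaps an exon of Meg3. The mature products of Mir770 are shown with the seed, bases 2 to 8, in capitals, as the small RNA carried by the spliced-out intron (RefSeq, GRCm38.p6); their seeds differ. Small RNAs are not measured by these libraries.
mmu-miR-770-5p: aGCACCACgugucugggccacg
mmu-miR-770-3p: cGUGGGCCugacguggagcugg

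Rian and Mirg were barely covered. All 6 and 3 single-exon reads of Rian (ENSMUSG00000097451.10, 57.8 kb) lay at its annotated end, on models of 105 and 96 bases, and 1 further read in replicate 1 joined 11 exons. The only Mirg read (ENSMUSG00000097391.8) joined 14 exons, of which 3 internal ones were not annotated in that form. It spliced across 7 of the 14 RefSeq hairpins within the gene, and its exons overlapped each of the others at least in part. The 3 hairpins that RefSeq places within Rian lie upstream of every Rian model with reads, so splicing across them could not be seen.

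Across the 297 kb from the start of Dlk1 to the end of Mirg the annotation lists 104 genes, of which 10 had reads. None of the 23 small nucleolar RNA genes and 3 of the 66 microRNA genes had reads. Rtl1, a retrotransposon-derived gene of the minus strand, had 3 and 0 reads. Reads on unannotated minus-strand models that overlap annotated genes of the region came to 77 and 52, including 29 and 14 over Meg3 and 31 and 24 over Rian. Of these models, 5 of 23 in replicate 1 and 4 of 19 in replicate 2 were spliced. Whether the others were placed on the right strand was not tested. Reads on minus-strand models outside annotated genes came to 47 in replicate 1 and 1 in replicate 2. Dio3, at the far end of the domain, had 0 and 1 reads, and Begain, its neighbour beyond Dlk1, had 1 and 2.

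Nnat (ENSMUSG00000067786.16) is a compact gene of 2.45 kb at positions 157560078 to 157562522 of chromosome 2, and lies within an intron of Blcap on the other strand. Blcap had 89 and 110 reads (150 and 142 CPM), close in level to Nnat. Most Nnat reads were single-exon (49 and 65), and 42 and 64 of these were on models ending within 10 bases of the annotated end. Another single-exon model, of 1936 bases, held 7 reads (7.53%) in replicate 1. It runs from position 157559074 to 157561009, so it begins upstream of the annotated start of Nnat. In replicate 1 all 49 single-exon reads were on models that reach beyond any 1 annotated exon, against 1 of 65 in replicate 2. The extent of each read within its model was not seen. The leading spliced form was Nnat-202, with 26 reads (28.0%) and 36 reads (32.1%), followed by Nnat-205 with 5 and 7, which lacks the middle exon.

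The middle exon of 81 bases (chr2:157561213-157561293, plus strand, mm10) lies in the coding sequence and holds 27 codons. It is shown in capitals, with 12 bases of each neighbouring exon in small letters, since it separates the long from the short Nnat protein known in brain:
Nnat middle exon: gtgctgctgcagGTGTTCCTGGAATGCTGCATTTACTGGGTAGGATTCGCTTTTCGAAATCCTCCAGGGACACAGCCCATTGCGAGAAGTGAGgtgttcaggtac

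The exon was kept in 30 of 39 informative reads of replicate 1 (76.9%, exact 95% interval 60.7 to 88.9) and 37 of 45 of replicate 2 (82.2%, 67.9 to 92.0). The difference of 5.30 points, lower in replicate 1, did not pass (p = 0.59 by Fisher's exact test, 0.59 after adjustment over 2 splice shares). A form ending 5 bases earlier had 2 and 1 reads. An upstream annotated exon of 88 bases was in 5 and 1 reads.

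Mest (ENSMUSG00000051855.15; chromosome 6, 30723547 to 30748465, plus strand) was read almost as 1 transcript. Mest-211, of 12 exons and 2561 bases, held 75 reads (77.3%) in replicate 1 and 59 reads (70.2%) in replicate 2. Reads that began in its first exon, which ends at position 30738335, came to 79 and 60, and 2 and 1 reads began at the annotated start upstream. Another 1 and 2 spliced reads began in exons that are first exons of other annotated transcripts. Shorter spliced models matching its last 3 exons held 6 reads (6.19%) and 3 reads, and those matching its last 2 exons held 4 reads and 6 reads (7.14%). No read skipped an internal exon of Mest-211, while 2 reads of replicate 1 used a longer form of its 59-base exon and 1 a shorter form of its 64-base exon. A single-exon model of 569 bases at the gene's end held 9 reads (10.7%) in replicate 2.

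The stretch before the start that most spliced Mest reads used is shown with each CG in capitals, as CG sites carry the methylation mark known to set the imprint of this promoter (250 bases, chr6:30737800-30738049, plus strand, RefSeq GRCm38.p6). It holds 14 CG pairs, against a median of 6 over 32851 promoter windows of the same length, and 29.4% of these hold as many or more. Methylation was not measured:
Mest promoter: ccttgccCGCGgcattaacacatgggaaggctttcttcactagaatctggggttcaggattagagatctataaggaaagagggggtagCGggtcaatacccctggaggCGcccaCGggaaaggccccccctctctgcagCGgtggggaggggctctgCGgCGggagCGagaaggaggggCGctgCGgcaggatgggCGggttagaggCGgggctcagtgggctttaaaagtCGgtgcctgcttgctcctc

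The second intron of Mest-211, of 1316 bases, contains the hairpin of Mir335. It was spliced out in 80 and 62 reads, and no Mest read had an exon over the hairpin. The mature products are shown with the seed in capitals (RefSeq, GRCm38.p6), and share no seed with each other or with those of Mir770:
mmu-miR-335-5p: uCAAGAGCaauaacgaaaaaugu
mmu-miR-335-3p: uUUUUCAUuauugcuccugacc

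Grb10 (ENSMUSG00000020176.17) is the longest member. Single-exon reads at its annotated end made 7 of 13 and 4 of 6 reads. Only 3 spliced reads reached its first exon, 2 in replicate 1 and 1 in replicate 2, all at the start of Grb10-201, and 1 read of replicate 1 began in an exon that opens another annotated transcript. All Peg3 reads of replicate 1 (ENSMUSG00000002265.16) and 7 of 8 in replicate 2 were on a single-exon model ending at the gene's annotated end, and 1 read of replicate 2 covered all 9 exons of Peg3-201, of 8694 bases. Whether long RNAs were read in part because the molecules were broken or the reads stopped early was not tested.

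Of 60 other imprinted genes, 54 had reads and 36 were tested. Of these, 3 were called between the libraries, 2 higher in replicate 1 and 1 in replicate 2, where 3.46% of all genes tested were called. The exact test of edgeR called 2 of the 36, against 1.25% of all genes. Their median log2 ratio was 0.11. The noncoding RNA H19, high in fetal muscle and liver, stood at 932 and 159 CPM, a ratio of 5.85 (adjusted p = 3.3e-90 by the exact binomial test). The growth factor gene Igf2 stood at 70.8 and 29.8 CPM (ratio 2.38, adjusted p = 0.018 by the same exact test), and edgeR's exact test did not call it. Gatm, an enzyme of creatine synthesis strong in kidney, stood at 13.5 and 84.2 CPM (adjusted p = 1.8e-07, exact binomial). Liver and muscle markers were, in sum, higher in replicate 1, as H19 and Igf2 were. The muscle marker Myh4 was called the other way (8.43 and 190 CPM). Kidney markers were higher in replicate 2, as Gatm was. The part of these tissues was not tested.

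Several other imprinted genes were as abundant as the members or more so, and none was called. Gnas, whose products include the stimulatory G protein subunit, stood at 2900 and 3063 CPM over all its transcript models. Cd81 stood at 1327 and 1226 CPM, and the cell cycle inhibitor gene Cdkn1c at 914 and 793 CPM. Ndn stood at 251 and 289 CPM, Dcn at 238 and 180 CPM and H13 at 201 and 224 CPM. Blcap, given above with Nnat, came next, followed by Commd1 (86.0 and 128 CPM), Snrpn (91.0 and 95.8 CPM) and Trappc9 (79.2 and 98.4 CPM), and Tssc4 and Sgce lay between 50.5 and 62.4 CPM.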

How the data were processed

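Long-read RNA-seq reads were grouped into transcript models by TALON and counted per model for each library by the authors, against mm10 and GENCODE M21, per the file headers (aligner and filters not given in the sources used here). The deposited values are counts. Here counts were summed per gene, with spike-in rows left out, and divided by library totals of 593165 and 772154 reads to give CPM. Gene reads were compared with an exact binomial test, two-sided p being the smaller tail doubled, 0.5 reads being added in log2 ratios, and class shares with Fisher's exact test (scipy 1.17.1), for genes with at least 10 reads in all or 50 reads in each library. Calls needed 10 percentage points for shares. edgeR 4.0.16 gave an alternative, with the dispersion estimated from both libraries as 1 group (biological coefficient of variation 0.251). Scripts were tested on simulated data. Members and gene lists were chosen with earlier results of these data known. Named were all members, models with at least 5% of a member's reads and 3 reads, and, of 60 other imprinted genes, those at 50 CPM or called.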

Additional observations from a re-analysis of the deposited data

How the results depend on the processing

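With only 2 libraries, calls compare libraries. No paired analysis was possible because there is 1 group. Members called for gene reads rose from 0 to 1 (Meg3) with models of 2 or more exons only, and to 1 (Meg3) with no minimum ratio. All genes called went from 366 to 292 with spliced models only, to 132 in edgeR's exact test and to 717 with no minimum ratio. Summing outcomes no more likely than the one seen, in place of doubling the smaller tail, called 410; both were computed, and doubling was chosen after both counts were seen, to match earlier processing of these data; no member was called either way. The log2 ratio of Dlk1 turned from -0.0085 to 0.023 with reads of annotated genes as the total. Genes called for single-exon share went from 6 to 17 with no minimum difference. Genes called for annotated share went from 24 to 57 with no minimum difference and to 76 when incomplete splice matches were added, which also turned the Meg3 difference from -2.70 to 36.6 points and called it (1 member): the last-exon model of Meg3 is classed as an incomplete match in replicate 1 and as genomic in replicate 2. Genes called for main transcript share went from 39 to 3 among annotated models, 14 among spliced models, 21 at 20 reads and 79 with no minimum difference; Mest turned from 7.08 to -1.30 points among spliced models. Mean CPM counted on annotated models was 258 for Dlk1, 8.94 for Meg3, 0 for Rian, 0.648 for Peg3, 64.3 for Nnat and 1.49 for Grb10; on spliced models it was 275 for Dlk1, 54.8 for Meg3, 0.843 for Rian, 0.648 for Peg3, 67.5 for Nnat and 4.67 for Grb10; with spike-ins in the total it was 288 for Dlk1. Leaving out 1 library gave the other library's level. Under 10 reads, a member was not tested.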
